A study of Mus musculus with 3 samples.

Results

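The 7 Reg family genes of the mouse (Reg1, Reg2, Reg3a, Reg3b, Reg3d, Reg3g and Reg4) were followed through single epithelial cells of 3 pancreatic tumours. They were taken by symbol from the 31053 genes of the count tables, whatever their values. Each tumour grew in an NSG mouse, a strain without T, B and natural killer cells, after orthotopic transplantation of tdTomato+ epithelial cells. The donor cells had the genotype Msi2-Myc; R26-LSL-tdTomato and were sorted at a pre-cancer stage, 5 weeks from tamoxifen treatment, the drug that turns on MYC and the red reporter through the CreER of the Msi2 line. EpCAM+ cells were sorted from the end-stage tumours, and their RNA was read from the 3' end with unique molecular identifiers (UMIs), which count each captured transcript once. The labels differ by title alone, so the tumours form 1 group of 3 and were not compared with each other; the study asked whether 1 pool of uncommitted pre-cancer cells can give several tumour subtypes. No untransplanted or normal pancreas was analysed here.

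Reg genes encode small secreted proteins with a C-type lectin-like fold. In the pancreas they are products of acinar cells, the cells that make digestive enzymes, and several are induced in injured or inflamed tissue, where they are regarded as acute-phase proteins. In the intestine Reg3b and Reg3g are made by epithelial cells and act against bacteria at the mucosal surface, and their induction there is known to run through STAT3.

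In the GENCODE annotation of mm10 (GRCm38), 6 members lie within 98.2 kb of chromosome 6, at chr6:78370657-78468872, in the order Reg3b, Reg3d, Reg3a, Reg2, Reg1 and Reg3g. Reg3d and Reg3g lie on the minus strand and the other four on the plus strand. Reg4 lies apart at chr3:98222156-98236748. RefSeq gives a window from 250 bases before to 50 bases after the start of each gene on GRCm38.p6, and all 7 members matched. The windows of Reg1 and Reg2 and of Reg3b and Reg3g are printed because their transcripts are the most alike among the members (identical at 80.4% and 74.7% of aligned bases), while their levels divided differently between the cell classes. They run 5′ to 3′ on the gene's own strand. Capitals mark TATAAAA (the TATA box), CACCTG (an E-box) and TTCNNNGAA (the palindrome of STAT factors), each searched on both strands, with no overlaps among the matches printed.
Reg1, chr6:78425733-78426032, plus strand: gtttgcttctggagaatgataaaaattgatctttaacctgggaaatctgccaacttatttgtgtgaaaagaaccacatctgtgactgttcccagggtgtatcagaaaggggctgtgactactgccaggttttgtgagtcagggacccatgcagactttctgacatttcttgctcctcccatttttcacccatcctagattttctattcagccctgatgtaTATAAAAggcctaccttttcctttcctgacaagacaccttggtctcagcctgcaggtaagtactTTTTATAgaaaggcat
Reg2, chr6:78404905-78405204, plus strand: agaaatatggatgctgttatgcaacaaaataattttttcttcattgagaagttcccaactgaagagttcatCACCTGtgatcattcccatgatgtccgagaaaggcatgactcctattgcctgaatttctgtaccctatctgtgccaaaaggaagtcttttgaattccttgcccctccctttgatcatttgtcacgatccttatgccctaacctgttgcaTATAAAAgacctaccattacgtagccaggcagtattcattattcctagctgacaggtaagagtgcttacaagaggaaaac
Reg3b, chr6:78370635-78370934, plus strand: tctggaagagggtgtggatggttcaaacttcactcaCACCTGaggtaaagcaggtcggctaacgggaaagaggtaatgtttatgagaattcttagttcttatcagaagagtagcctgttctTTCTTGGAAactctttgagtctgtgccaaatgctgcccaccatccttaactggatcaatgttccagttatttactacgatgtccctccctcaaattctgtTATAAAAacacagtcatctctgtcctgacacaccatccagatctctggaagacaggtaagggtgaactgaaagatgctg
Reg3g, chr6:78468825-78469124, minus strand: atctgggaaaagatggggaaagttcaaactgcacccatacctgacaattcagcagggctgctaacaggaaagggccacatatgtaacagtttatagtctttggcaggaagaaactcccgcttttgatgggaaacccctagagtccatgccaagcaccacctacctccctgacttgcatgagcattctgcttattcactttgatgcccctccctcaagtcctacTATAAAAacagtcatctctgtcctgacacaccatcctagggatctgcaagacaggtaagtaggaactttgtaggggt
TATAAAA was found 27 to 30 bases before the start of Reg1, Reg2, Reg3b and Reg3g and was absent from the other 3 windows; it was present in 5.48% of all 32851 RefSeq windows of this length. Reg1 has a further match on the opposite strand, at base 34 after the start. CACCTG was found in the windows of Reg2, Reg3a, Reg3b, Reg3d and Reg4, against 20.2% of all windows. TTCNNNGAA was found in those of Reg3b, 129 bases before the start, and Reg3d, 238 bases before the start, against 8.30% of all windows. The windows themselves were identical at 64.0% of aligned bases for Reg1 and Reg2 and at 69.9% for Reg3b and Reg3g, against 73.9% for Reg3a and Reg3g, the closest pair of windows. Those of Reg3b and Reg3g shared a run of 29 bases that begins 20 bases before the start of each. It is shown here because it is the longest run shared by any pair of windows.
Shared run: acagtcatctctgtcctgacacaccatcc
The longest run shared by transcripts of Reg3b and Reg3g had 35 bases, and no stretch of 50 bases was shared between transcripts of any members. Of the 50-base stretches of Reg1 and Reg2 transcripts, 3.65% and 4.34% also occur in transcripts of other genes, so a small part of their reads could have been ambiguous for the authors' counting.

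A barcode was kept as a cell if it had at least 1000 UMIs, at least 500 genes and at most 20% mitochondrial UMIs, and if at least 60% of its UMIs over the 3 libraries lay in the library in question. This left 1431, 253 and 2804 cells in tumours 1, 2 and 3. Every barcode that passed the first 3 conditions also had 10 or more UMIs in another library, and the last condition removed 50.5% of them in tumour 2, against 7.86% in tumour 1 and 0.989% in tumour 3, so tumour 2 rests on the fewest cells. A cell entered a gate with 3 or more UMIs, making up 1000 or more counts per 1000000 of its UMIs (CPM), of a marker pair: Ctrb1 and Clps for acinar, Tff1 and Lgals4 for ductal, Krt5 and Krt14 for squamous. The acinar gate alone held 426, 49 and 1718 cells and the ductal gate alone 501, 102 and 297. Both gates together held 239, 45 and 497 cells, and no gate 263, 54 and 203. Acinar markers outside the gate summed to between 4141 and 7773 CPM in acinar-gated cells and to between 201 and 254 CPM in ductal-gated cells. Ductal markers outside the gate summed to between 1490 and 2180 CPM in acinar-gated cells and to between 6856 and 9660 CPM in ductal-gated cells. All 7 islet markers were at 0 in both classes. A list of enteroendocrine and goblet genes summed to between 67.3 and 125 CPM in acinar-gated cells and to between 548 and 1044 CPM in ductal-gated cells, where Chga, Chgb, Neurod1 and Muc2 were at 0. Barcodes with over 10% of their UMIs from Gm42418 and AY036118, transcripts of the ribosomal RNA locus, were 32.4%, 6.12% and 65.6% of acinar-gated cells, at most 6.86% of ductal-gated cells and at least 82.2% of double-gated cells. Reg levels are also given without them.

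Acinar-gated cells gave a larger share of their RNA to this family than ductal-gated cells did. Reg UMIs made up 1.99%, 1.79% and 3.07% of all UMIs of acinar-gated cells in tumours 1, 2 and 3, against 0.461%, 0.623% and 1.19% in ductal-gated cells. The 2 classes did not overlap, and within each tumour the acinar share was the higher one. Reg1 took most of the family's UMIs in both classes, with 57.8% to 65.9% in acinar-gated cells and 63.3% to 65.5% in ductal-gated cells. Of the 7 members, Reg1, Reg2, Reg3a and Reg3b rose in acinar-gated relative to ductal-gated cells and Reg3g fell, by edgeR's quasi-likelihood test on UMIs summed per tumour and class, with the tumour as a block and a Benjamini-Hochberg adjusted p under 0.05 over all genes. In the same test 15.9% of the 9097 genes counted were higher and 17.5% lower (33.4% in all), so a call is common among genes in general. Reg3d passed the filter on low counts only through classes other than ductal, which fixes its direction, so it is described without a test, and Reg4 was not detected.

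Reg1 encodes the secreted protein of pancreatic juice known as lithostathine or pancreatic stone protein. Its level was 13091, 10311 and 17754 CPM in acinar-gated cells, against 2962, 3946 and 7825 CPM in ductal-gated cells of tumours 1, 2 and 3. All 3 acinar values lay above all 3 ductal values. By UMI count Reg1 was the second most abundant gene of acinar-gated cells in each tumour, and in ductal-gated cells it ranked 69, 29 and 10. It rose in acinar-gated cells by 1.53 ± 0.16 on the log2 scale (SE; edgeR's quasi-likelihood test, Benjamini-Hochberg adjusted p = 5.72e-13), and it was higher there in 3 of 3 tumours. The ratio of acinar to ductal level was 4.42, 2.61 and 2.27, so the gap was narrowest in tumour 3, where Reg1 was highest in both classes. One acinar-gated cell of tumour 2 held 25.1% of that class's Reg1 UMIs, against at most 6.99% in the other two tumours.

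Reg2, the close relative of Reg1 that is also made by the mouse exocrine pancreas, divided far more sharply between the gates. It stood at 2547, 2954 and 6434 CPM in acinar-gated cells, against 51.8, 73.1 and 141 CPM in ductal-gated cells. The lowest acinar value was therefore well above the highest ductal value. The difference was 5.45 ± 0.32 on the log2 scale (SE; edgeR's quasi-likelihood test, adjusted p = 3.92e-25), and the ratio of levels was 49.2, 40.4 and 45.5 in the 3 tumours. For every 100 UMIs of Reg1 there were 19.5, 28.7 and 36.2 UMIs of Reg2 in acinar-gated cells and 1.75, 1.85 and 1.81 in ductal-gated cells. The ductal proportions rest on 59, 12 and 160 UMIs of Reg2. Without the barcodes rich in ribosomal locus RNA there were 26, 2 and 155 UMIs of Reg2 beside 3116, 562 and 8843 of Reg1 in ductal-gated cells, so these proportions differed more between tumours. The acinar proportions lay above all of them, and the difference was not tested. In tumour 2, 1 acinar-gated cell held 38.2% of the Reg2 UMIs of its class.

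Reg3a, a member of the Reg3 branch, followed Reg2. Its level was 638, 774 and 1384 CPM in acinar-gated cells, against 15.8, 42.6 and 19.4 CPM in ductal-gated cells, where only 18, 7 and 22 UMIs were counted. The classes did not overlap, and Reg3a rose in acinar-gated cells by 5.60 ± 0.27 on the log2 scale (SE; edgeR's quasi-likelihood test, adjusted p = 1.72e-29). There were 25.03, 26.2 and 21.5 UMIs of Reg3a for every 100 of Reg2 in acinar-gated cells, a proportion that moved less across tumours than that of Reg2 to Reg1. Reg3d, the mouse relative of the hamster islet neogenesis-associated protein, was scarce. It had 18, 6 and 198 UMIs in acinar-gated cells (19.6, 50.5 and 46.4 CPM), against 1, 0 and 2 UMIs in ductal-gated cells (0.878, 0 and 1.77 CPM). The acinar values lay above the ductal ones, on counts too few to size the difference.

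Reg3b, also called pancreatitis-associated protein, kept a high level in both classes. It reached 3036, 3148 and 4400 CPM in acinar-gated cells, against 1096, 1309 and 2634 CPM in ductal-gated cells. The lowest acinar value lay above the highest ductal value, by a small margin. Reg3b rose in acinar-gated cells by 1.13 ± 0.15 on the log2 scale (SE; edgeR's quasi-likelihood test, adjusted p = 5.67e-09), higher in 3 of 3 tumours. With other marker pairs for the gates (Cpa1 and Pnliprp1, Tff2 and Anxa10, Krt15 and Krt6a) the difference was 0.36 and missed the threshold (adjusted p = 0.140, edgeR; 5.24e-21 to 0.140 over 18 alternatives). Both readings leave Reg3b with a narrower gap than Reg2 or Reg3a, whose differences were 3.09 and 3.50 with those pairs.

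Reg3g encodes a lectin that binds peptidoglycan and kills Gram-positive bacteria. Its mean level was lower in acinar-gated than in ductal-gated cells. The values were 535, 614 and 652 CPM in acinar-gated cells, against 487, 859 and 1319 CPM in ductal-gated cells. The groups overlapped: Reg3g was higher in acinar-gated cells of tumour 1 and lower in those of tumours 2 and 3, with ratios of acinar to ductal level of 1.10, 0.716 and 0.494. It fell by 0.47 ± 0.15 on the log2 scale (SE; edgeR's quasi-likelihood test, adjusted p = 0.0105). Without tumour 3 the adjusted p was 0.553, and without the barcodes rich in ribosomal locus RNA it was 0.178, so the call depends on that tumour and on those barcodes. Over 18 alternatives the adjusted p ranged from 9.71e-10 to 0.553. The proportion of Reg3g to Reg3b also differed between the classes. For every 100 UMIs of Reg3b there were 17.6, 19.5 and 14.8 UMIs of Reg3g in acinar-gated cells and 44.4, 65.6 and 50.1 in ductal-gated cells, which did not overlap; this difference was not tested.

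Reg4, the gastrointestinal member outside the chromosome 6 cluster, had 0 UMIs in every class of every tumour. The deepest class, the 4268592 UMIs of acinar-gated cells of tumour 3, allows up to 0.703 CPM at a limit of 3 counts, and the 164229 UMIs of ductal-gated cells of tumour 2 allow up to 18.3 CPM. It also had 0 UMIs in free RNA.

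**Figure D1:**
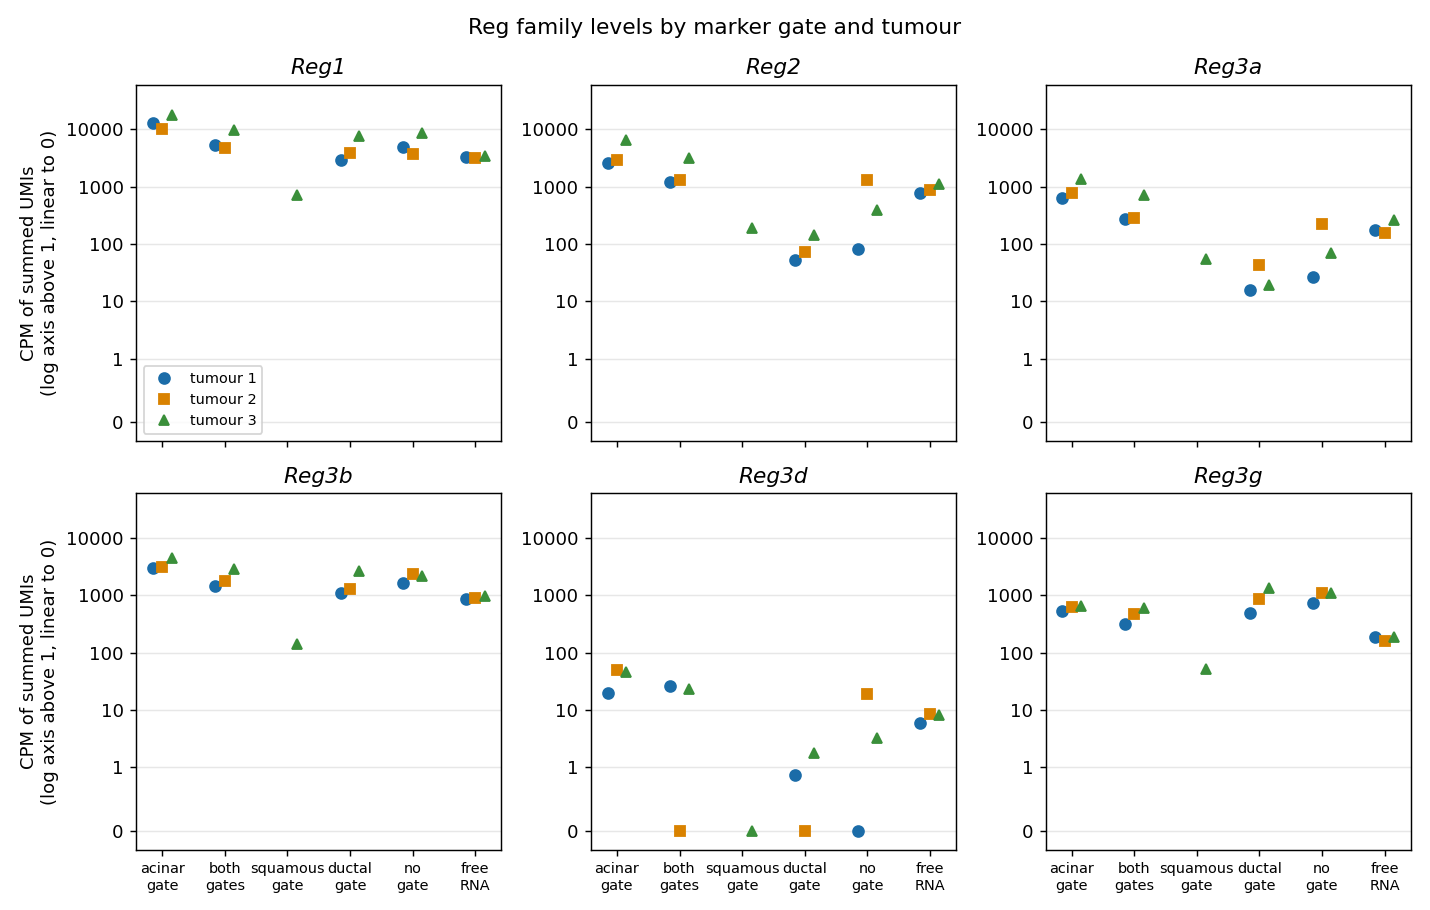
Level of each Reg gene (CPM of summed UMIs, log axis above 1 and linear to 0) by marker gate, 1 symbol per tumour, for classes of 20 or more cells; free RNA is the pool of barcodes with 10 to 100 UMIs. Reg2 (2547 to 6434 CPM against 51.8 to 141 CPM) and Reg3a lie far apart between acinar-gated and ductal-gated cells, while Reg3g in acinar-gated cells (535 to 652 CPM) lies within the range of ductal-gated cells (487 to 1319 CPM).

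**Figure D2:**
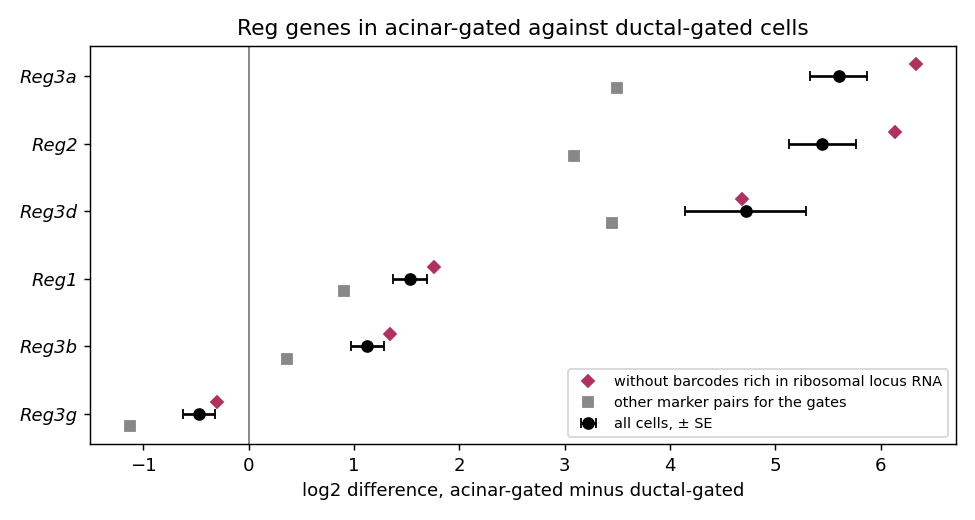
Fitted log2 difference of acinar-gated minus ductal-gated cells for the 6 members fitted. Bars are the SE of the fit to all 14 sums and do not show the spread between the 3 tumours. Reg3d rests on 1, 0 and 2 ductal UMIs. Diamonds leave out barcodes rich in ribosomal locus RNA and squares use other marker pairs; Reg2 and Reg3a stay above 3 with each, and Reg3g stays below 0.

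Without the barcodes rich in ribosomal locus RNA, Reg1 and Reg3g levels were higher in acinar-gated cells and moved little in ductal-gated cells. Reg1 then stood at 15740, 10958 and 24310 CPM in acinar-gated cells, against 2882, 3834 and 7822 CPM in ductal-gated cells. Reg3g stood at 615, 649 and 856 CPM in acinar-gated cells, against 491, 832 and 1321 CPM in ductal-gated cells, so its order across tumours was the same. Reg2 in ductal-gated cells was 24.0, 13.6 and 137 CPM without those barcodes, so in tumours 1 and 2 much of its small ductal count lay in them.

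Cells with both gates had Reg levels between those of the acinar and ductal gates for Reg1, Reg2, Reg3a and Reg3b in each tumour. Reg1 measured 5446, 4807 and 9984 CPM in double-gated cells, and Reg2 measured 1205, 1296 and 3172 CPM. They had 22.1, 27.0 and 31.8 UMIs of Reg2 for every 100 of Reg1, nearer to the acinar class than to the ductal class. Free RNA had a similar proportion, with 2002, 1213 and 2311 UMIs of Reg2 beside 8517, 4412 and 7375 of Reg1. How much of the double-gated counts is free RNA was not tested. Most double-gated cells were barcodes rich in ribosomal locus RNA. In the rest, Reg1 was 9700, 5882 and 14429 CPM. Cells in no gate resembled the ductal class in tumours 1 and 3, with 1.61 and 4.56 UMIs of Reg2 for every 100 of Reg1. Their 35.5 in tumour 2 rests on 1 cell of 40498 UMIs, which held 171 of the 210 Reg2 UMIs. Over the 3 tumours Reg3g averaged 979 ± 220 CPM in cells of no gate, 888 ± 417 in ductal-gated, 601 ± 59.5 in acinar-gated and 462 ± 143 in double-gated cells (SD, n = 3), and no neighbours in that order were separated by more than their spread. For Reg1 the order was acinar-gated, double-gated, no gate and ductal-gated, with ranges that overlapped among the last 3.

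Squamous-gated cells numbered 60 in tumour 3 and 2 in each other tumour, so a test between squamous-gated and ductal-gated cells could not be made. In tumour 3 Reg1 was 715 CPM in squamous-gated cells, with an exact Poisson interval of 619 to 823 CPM that covers counting error only, against 7825 CPM in ductal-gated cells. Reg3b was 142 CPM in squamous-gated cells, against 2634 CPM in ductal-gated cells, and Reg3g 51.1 against 1319 CPM. Reg2 was 193 CPM (interval 145 to 253) in squamous-gated cells and 141 CPM (interval 120 to 165) in ductal-gated cells, which overlap. Squamous-gated cells had 27.0 UMIs of Reg2 for every 100 of Reg1, against 1.81 in ductal-gated cells of that tumour. Free RNA of tumour 3 held 2311 UMIs of Reg2 beside 7375 of Reg1. Every member detected in squamous-gated cells was at 14.8% to 27.9% of its level in free RNA. Acinar genes with 100 or more free RNA UMIs had a median of 6.75%, and the highest, Cpb1, was at 19.8%. Reg2 (17.7%) and Reg3b (14.8%) lay below Cpb1. Reg1 (20.5%), Reg3a (20.6%) and Reg3g (27.9%) lay above it. How much of these counts is free RNA was not tested.

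Droplets also take up free RNA from broken cells, and its level was read in barcodes with 10 to 100 UMIs. Barcodes that were cells in another library were not left out of this pool. Since every cell kept had 10 or more UMIs in another library, the pool may hold UMIs of such barcodes, and their share was not measured. Reg1 in ductal-gated cells was 88.4%, 125% and 224% of its free RNA level in tumours 1, 2 and 3. Reg3b was 128%, 149% and 274% of it, and Reg3g 265%, 547% and 719%. Reg2 in ductal-gated cells was 6.58%, 8.44% and 12.9% of its free RNA level, and Reg3a 9.16%, 27.0% and 7.30%. Acinar genes outside the gate with 100 or more free RNA UMIs had a median of 8.34%, 11.9% and 7.001% by the same measure, over 13, 7 and 15 genes. These were enzyme and secretion genes and, in tumours 1 and 3, the transcription factor gene Rbpjl. Cela1, an elastase, was highest in tumours 1 and 3 at 90.2% and 82.4%, and Pnlip, the pancreatic lipase, in tumour 2 at 25.7%. Reg2 in every tumour, Reg3a in tumours 1 and 3 and Reg1 in tumour 1 thus lay within the range of those acinar genes, a range that Cela1 widens in tumours 1 and 3, and Reg3a in tumour 2, on 7 UMIs, was just above it. How much of any ductal count is free RNA was not tested. Reg3b and Reg3g lay above the highest of those genes in all 3 tumours, and Reg1 in tumours 2 and 3. As a share of the acinar-gated level, ductal-gated cells had 22.6%, 38.3% and 44.1% for Reg1, 36.1%, 41.6% and 59.9% for Reg3b, and 90.9%, 140% and 202% for Reg3g, against medians of 2.35%, 6.03% and 2.94% for the acinar genes. The highest acinar gene by this measure was at 62.1%, 96.5% and 33.2%. Reg1 and Reg3b lay below it in tumours 1 and 2 and above it in tumour 3. Reg3g lay above it in all 3 tumours.

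**Figure D3:**
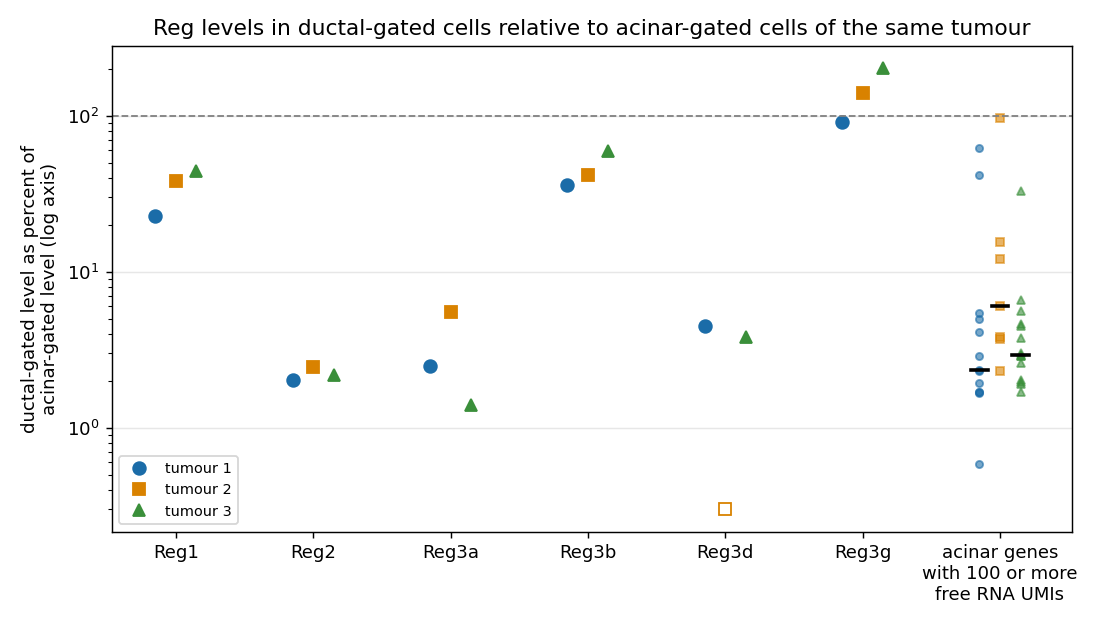
Level in ductal-gated cells as a percent of the level in acinar-gated cells of the same tumour (log axis; dashed line at 100%), for each Reg gene and for acinar genes with 100 or more free RNA UMIs (small symbols, black bars at the medians 2.35%, 6.03% and 2.94%). The open symbol is Reg3d in tumour 2, which had 0 ductal UMIs and is drawn at the lower edge. Reg1, Reg3b and Reg3g lie above the acinar medians and Reg2 lies near them. In tumours 1 and 2 the highest acinar gene, at 62.1% and 96.5%, lies above Reg1 and Reg3b.

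The gates cut a continuous range, so cells thinned to 1000 UMIs each were also ordered by their Ctrb1 and Clps UMIs. In tumour 1, Reg1 was 3279 CPM in the 657 cells with 0 of these UMIs and 19767 CPM in the 86 cells with over 20. Across the same bins Reg2 was 44.1 and 6058 CPM, and Reg3b was 1160 and 5209 CPM. Reg3g was nearly level, at 511 and 651 CPM. In tumour 3, Reg1 was 7002 CPM at 0 UMIs and 25566 CPM over 20, Reg2 was 181 and 10015 CPM, and Reg3g was 927 and 756 CPM with its lowest value, 427 CPM, in the bin of 3 to 5. Reg3a was 32.9 CPM at 0 UMIs and 2049 CPM over 20 in that tumour. Reg1 and Reg3b thus kept a level above 1000 CPM in cells without acinar gate UMIs, and Reg3g showed no steady course. In tumour 2 the bins above 10 held 11 and 6 cells and are not read. Going by ductal gate UMIs in tumour 3, Reg1 was 13479 CPM in cells with 0 and 2684 CPM in the 38 cells with over 20, and Reg3g was 536, 579, 730, 932, 709 and 342 CPM in order of the bins, highest at 6 to 10 UMIs.

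**Figure D4:**
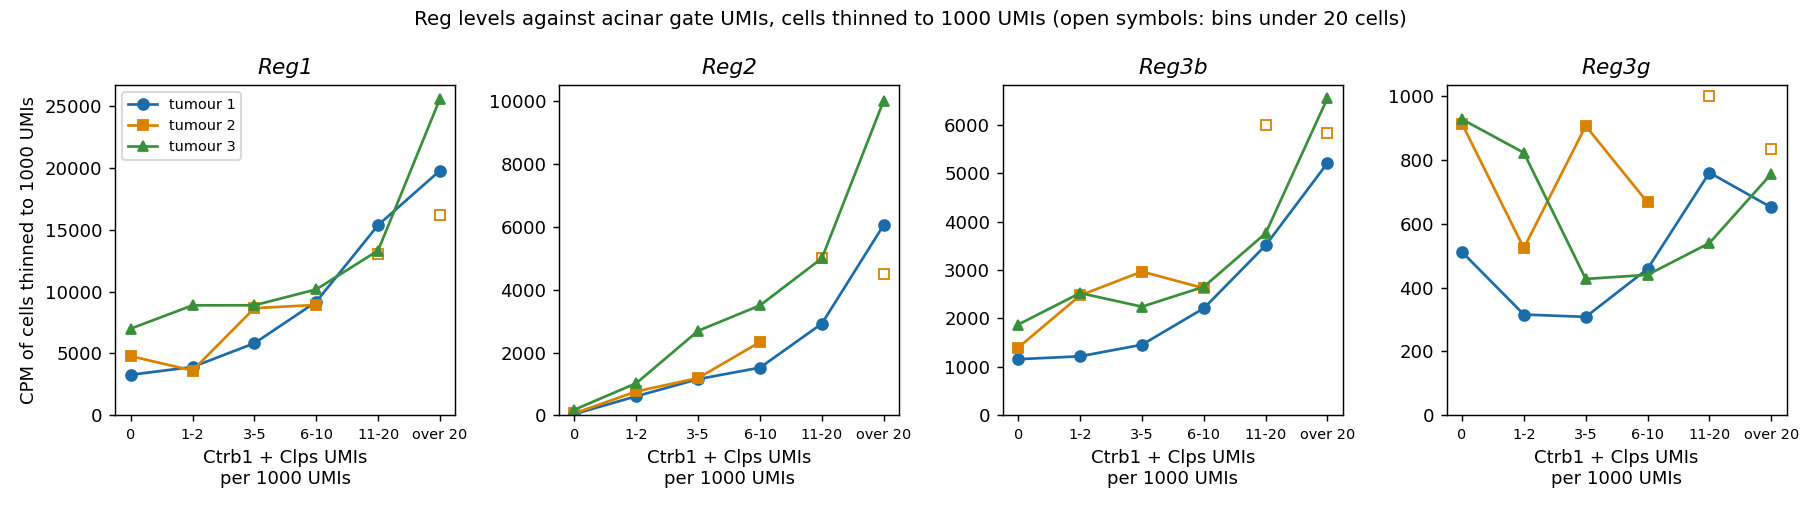
Level of 4 Reg genes (CPM, cells thinned to 1000 UMIs) in bins of Ctrb1 plus Clps UMIs, 1 line per tumour; open symbols are bins of tumour 2 with under 20 cells. Reg1, Reg2 and Reg3b are highest in the bin over 20 in tumours 1 and 3, whereas Reg3g is 651 and 756 CPM there, against 511 and 927 CPM in the bin at 0.

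Cells of a class differed in their Reg counts, shown here for Reg1 and Reg3b. After thinning, the median cell had 9 UMIs of Reg1 in acinar-gated cells of each tumour and 1, 2 and 4 in ductal-gated cells. The 10% of cells with most Reg1 held 29.8%, 28.5% and 31.9% of its UMIs among acinar-gated cells and 49.8%, 39.6% and 39.4% among ductal-gated cells. For Reg3b the top 10% held 47.2%, 26.6% and 42.2% among acinar-gated cells and 64.1%, 62.9% and 56.7% among ductal-gated cells. A lower count per cell by itself raises this share, so nothing is read from it on how evenly the classes express either gene. The highest thinned cell of the ductal class had 36, 24 and 69 UMIs of Reg1 per 1000 UMIs, within the range of acinar-gated cells, whose highest had 62, 60 and 113.

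Members that were abundant in a class also varied together from cell to cell. Across acinar-gated cells the mean Spearman's rho over the 3 tumours was 0.50 for Reg1 with Reg3b, 0.47 for Reg1 with Reg2, 0.49 for Reg2 with Reg3b and 0.34 for Reg3b with Reg3g. Across ductal-gated cells it was 0.58 for Reg1 with Reg3b, 0.47 for Reg1 with Reg3g and 0.45 for Reg3b with Reg3g, but 0.09 for Reg1 with Reg2, which has few UMIs there. These values describe 2193 acinar-gated and 900 ductal-gated cells that share libraries, and the ductal ones were looked at after the acinar values were known. They include the barcodes rich in ribosomal locus RNA, which were 32.4%, 6.12% and 65.6% of acinar-gated cells in tumours 1, 2 and 3. The correlations were not computed without those barcodes. Among 2193 genes compared in acinar-gated cells, the 3 nearest to Reg1 were Reg3b, Reg2 and Ctrb1, and those nearest to Reg3g were Reg3b, Reg1 and Dmbt1. Dmbt1 encodes a secreted mucosal scavenger receptor protein. Among 2540 genes compared in ductal-gated cells, the 3 nearest to Reg1 were Reg3b (0.58), Dmbt1 (0.51) and Reg3g (0.47).

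**Figure D5:**
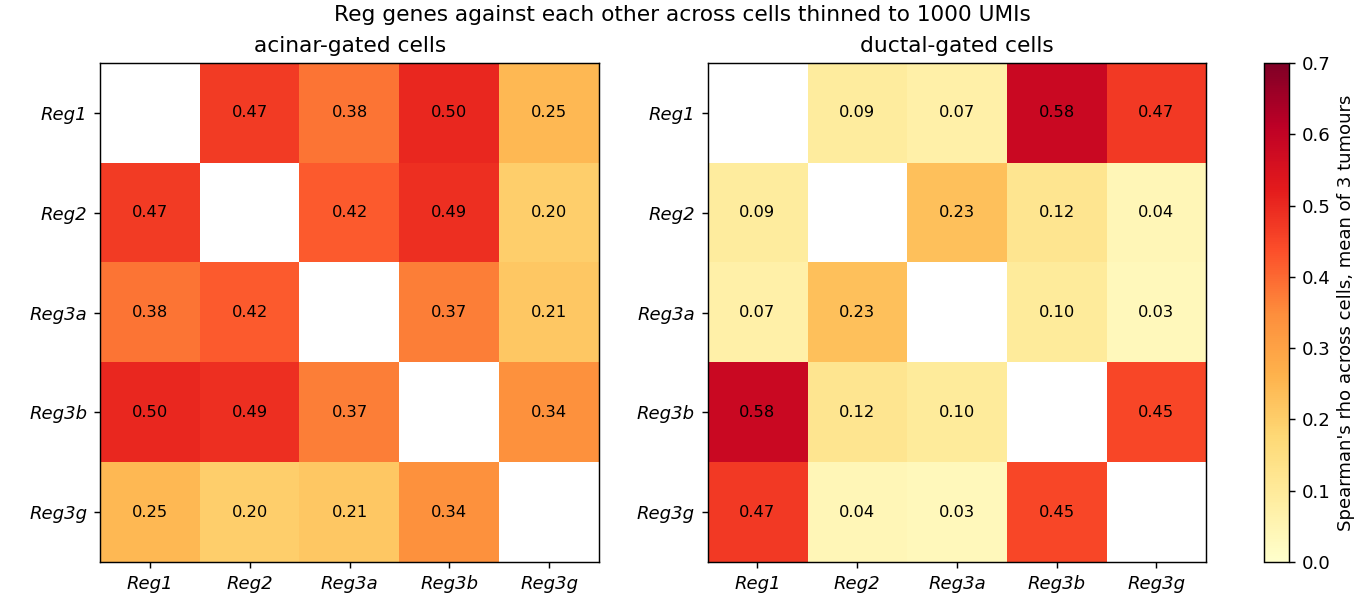
Spearman's rho of 5 Reg genes with each other across cells thinned to 1000 UMIs, mean of 3 tumours, in acinar-gated (left) and ductal-gated cells (right). Barcodes rich in ribosomal locus RNA are included. Reg1, Reg2, Reg3a and Reg3b form a block of 0.37 to 0.50 in acinar-gated cells; in ductal-gated cells Reg1, Reg3b and Reg3g form one of 0.45 to 0.58.

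Nearest genes were also taken across the 14 sums of 20 or more cells, which share tumours and libraries, and the groupings differed from those across cells. By Pearson's r of log2(CPM + 10) over 8020 genes, Reg2 was nearest to Reg3a (0.98), then to Cel, which encodes carboxyl ester lipase (0.94), and Rbpjl, a subunit of the acinar transcription factor PTF1 (0.94). Reg3a was nearest to Reg2, Cpa1 (a carboxypeptidase, 0.97) and Cel (0.95). Reg1 was nearest to Reg3b (0.94), followed by Rps27l (0.85) and L3mbtl2 (0.85), and Reg3b to Reg1, L3mbtl2 (0.86) and Chchd1 (0.84). Reg3g was nearest to Dmbt1 (0.94), Lgals9, which encodes galectin-9 (0.90), and Lrg1, a secreted acute-phase glycoprotein (0.88). Reg3d was nearest to Smco4 (0.94), Ifrd1 (0.92) and Pdia2, a pancreatic protein disulfide isomerase (0.92), on few UMIs.

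Other genes around the family were counted in the same test of acinar-gated against ductal-gated cells. Of all 9097 genes counted there, 15.9% were higher and 17.5% lower, so nothing is read from the number called in a list. Of 27 acinar genes outside the gate, 26 were tested, 25 were higher, none was lower and Gata4 did not pass (median log2 difference 4.78, against -0.0027 over all genes). Most of the 25, such as Cckar, Nr5a2 and Cela2a, passed the filter on low counts only through classes other than ductal. As for Reg3d, this fixes their direction, so the count and the median are a description only. Pnliprp1, a lipase-related protein (5.33), Cpa1 (5.66), Cel (5.65) and Cela2a, an elastase (5.11), had the lowest adjusted p in this list. Reg2 at 5.45 and Reg3a at 5.60 lie beside the values of Pnliprp1, Cpa1 and Cel, and Reg1 at 1.53 beside Cela1 at 1.56. Of 20 genes of the proposed Reg receptor and the STAT3 pathway, 16 were tested, of which 1 was higher, 4 were lower and 11 did not pass (median -0.27). The higher gene was Extl3, an exostosin-like protein proposed as a Reg receptor. It was at 23.9, 42.1 and 19.0 CPM in acinar-gated cells, against 4.39, 12.2 and 6.19 CPM in ductal-gated cells. Extl3 passed the filter on low counts only through classes other than ductal, which fixes its direction, so it is described without a test. Il10rb, a subunit of the IL-22 receptor (-1.32), Osmr, the oncostatin M receptor (-2.08), the kinase gene Jak2 (-1.22) and the transcription factor gene Cebpd (-0.82) were lower. Osmr and Jak2 passed that filter only through classes other than acinar, so their lower values are a description only. Stat3 itself did not pass (0.07 ± 0.23, SE, adjusted p = 0.851 by edgeR), nor did its target Socs3 (-0.01 ± 0.26, SE).

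Of 18 secreted acute-phase and antimicrobial genes, 8 were tested, of which 2 were higher, 4 lower and 2 did not pass (median -0.84). Among all genes 15.9% were higher and 17.5% lower, and on 8 genes nothing is read from the count. The higher genes of the list were Spink1, the pancreatic trypsin inhibitor, and Pla2g1b, the pancreatic phospholipase. Spink1 was at 200, 135 and 225 CPM in acinar-gated cells, against 9.66, 0 and 7.95 CPM in ductal-gated cells. Pla2g1b was at 2.18, 8.42 and 13.1 CPM in acinar-gated cells, against 1.76, 0 and 2.65 CPM in ductal-gated cells. Both passed the filter on low counts only through classes other than ductal, so they are described without a test. The polymeric immunoglobulin receptor gene Pigr (-2.83), Dmbt1 (-1.33), Wfdc2 (-0.97) and Lcn2, which encodes the siderophore-binding lipocalin (-0.72), were lower. Dmbt1 was 1095, 867 and 1732 CPM in acinar-gated cells, against 1923, 3586 and 4097 CPM in ductal-gated cells. It was lower in acinar-gated cells of every tumour, and Reg3g in tumours 2 and 3.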

How the data were processed

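RNA of EpCAM+ cells from 3 tumours was measured, 1 library per tumour. The authors deposited raw UMI counts for each gene in each barcode, not normalized and produced with Cell Ranger 3.0.2 per the file headers; the submitters' processing notes also name mm10 and Seurat 3.1. The tables list 31053 genes and all 6794880 possible barcodes, with 11502184, 9737397 and 16521484 UMIs in tumours 1, 2 and 3; kept cells had a median of 1621, 1333 and 1606 UMIs. Which annotation the authors counted on is not stated in the labels or headers. Kit versions 1 and 3 are both named in the labels, and which applies was not settled.

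Levels are UMIs summed per tumour and gate class, scaled to CPM here with exact Poisson intervals at 95%, and with no correction for length, since reads come from the 3' end. Kept cells had a median of 75.1%, 77.8% and 80.0% of their barcode's UMIs in their own library. Doublets were not called; leaving out the 5% of cells with the most UMIs is an alternative. edgeR 4.0.16 (R 4.3.3) fitted 14 sums of 20 or more cells together, using filterByExpr and TMM, with the tumour as a block. The fit covered 9103 genes, had 6 residual degrees of freedom and gave a common biological coefficient of variation of 0.117. The gate genes were left out of counts of genes, leaving 9097. The gates and the sums use the same cells. The script was tested on simulated data. DESeq2 1.42.0 was an alternative. Classes of 1 tumour share an animal, which pairs them; the correlation of their deviations from class means was 0.101, 0.0528 and 0.285. Nothing says whether the tumours came from separate donors, so p-values apply to these 3 tumours only. They rest on the residuals of all 14 sums, with 6 residual degrees of freedom, and do not measure the spread between 3 independent tumours. The barcode of every kept cell also had UMIs in another library, so the 3 libraries may not be independent. How far this affects the p-values was not tested.

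All members were named, with for each the 3 genes of highest correlation and, of each list, up to 4 genes per direction with the lowest adjusted p; further genes were named after their values were seen (Gata4, Stat3, Socs3, Cela1 and the ductal correlations). Of the lists, Mist1, Pla2g2a and Pap had no entry in the tables under those names. The members, gates and lists were chosen with earlier results of these data known. Window sequences come from RefSeq (GRCm38.p6), with the first window listed for each symbol. Transcripts and gene coordinates come from GENCODE M21, matched by gene identifier. The RefSeq windows of Reg1 and Reg2 begin at 78425733 and 78404905, inside the GENCODE genes, which start at 78422711 and 78395623.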

Additional observations from a re-analysis of the deposited data

How the results depend on the processing

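Reg1, Reg2 and Reg3a kept their direction and call under all 18 alternatives, with log2 differences of 0.91 to 1.87, 3.09 to 6.19 and 3.50 to 6.56. Reg3d, whose direction the filter fixes, had fitted values of 3.45 to 5.45 in 17, and without tumour 3 it did not pass the filter. Reg3b missed the call with other marker pairs alone (0.36, adjusted p = 0.140, edgeR). Reg3g stayed below 0 in all 18 (-1.13 to -0.19) but missed the call in 8: a gate of 5 UMIs and 2000 CPM (adjusted p = 0.184), gates on thinned cells (0.414), 2000 or more UMIs per cell (0.476), 50 or more cells per sum (0.0615), without the replicate block (0.187), DESeq2 (0.0981), without tumour 3 (0.553), and, chosen after seeing the data, at most 10% of UMIs from Gm42418 and AY036118 (0.178). In these 8 the number of members lower in acinar-gated cells was 0 in place of 1. Leaving out each tumour in turn gave 4 to 5 members higher (Reg3d included) and 0 to 1 lower, 394 to 1570 genes higher and 620 to 1685 lower. Without tumour 3 the counts over all genes were 394 and 620, and without tumour 1 they were 582 and 804. Without the replicate block 785 genes were higher, in place of 1442, and 1073 lower; with DESeq2 the counts were 830 and 1116. The causes were not tested. Among 168 mean levels recomputed in acinar-gated and ductal-gated cells, 159 moved by at most 1 SD between tumours and 9 by more. With 3 tumours, a mean that leaves out 1 of them cannot move by 1 SD, and Reg4 was at 0 throughout. Part of the 159 was therefore fixed in advance, so the count does not measure how stable the levels are.

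Requiring 90% of a barcode's UMIs in its own library left too few cells for a fit, and alternatives of the squamous comparison were not run, since tumours 1 and 2 had 2 squamous-gated cells each. Depth limits Reg3d and, in ductal-gated cells, Reg2 and Reg3a, which have 7 to 160 UMIs per tumour.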

Other observations

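Barcodes that passed every other condition but had under 60% of their UMIs in the library, 122, 258 and 28 in tumours 1, 2 and 3, also carried Reg RNA. Their Reg1 level was 17163, 15319 and 9435 CPM, their Reg2 level 5652, 4180 and 931 CPM, and their Reg3g level 804, 797 and 626 CPM. Reg4 was at 0 in them too. Reg1 and Reg3b in free RNA varied little between tumours, at 3350, 3149 and 3494 CPM and at 853, 879 and 962 CPM. The free RNA pool of a library may hold barcodes that were cells in another, so these levels may not be independent.

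In ductal-gated cells the 3 genes nearest to Reg2 by Spearman's rho, chosen after their values were seen, were Lars2 (0.24), AY036118 (0.23) and Gm42418 (0.22), while those nearest to Reg3b were Reg1 (0.58), Reg3g (0.45) and Dmbt1 (0.36).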
